A study of Mus musculus with 12 samples.

Results

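Hsp90ab1 encodes the beta form of cytosolic HSP90, an abundant chaperone that folds kinases, steroid receptors and many other client proteins, and the gene is strongly transcribed in embryonic stem cells. A single stretch inside this gene was sequenced. The cytosines described are all those within set coordinates and above a coverage minimum: every CpG cytosine of chr17:45706386-45706820 (mm9) with 10 or more read-outs in all 12 samples. There were 27 such cytosines of 384 in the whole series, and none was lost to the coverage minimum. The study picked most of its loci because earlier antibody-based maps of 5mC and 5hmC differed between these genotypes, and the rest because they did not, so the share of changed cytosines in the series is that of a selected set. A read-out is 1 sequenced base at 1 cytosine, and the C share is the percent of read-outs that were C.

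The samples were mouse embryonic stem cells of the V6.5 line in 2 genotypes, with 3 replicates each. The v6.5 group was the parental wild-type line, and the Tet2kd group was the same line carrying a stably integrated pSUPER-puro short hairpin plasmid against Tet2, selected with puromycin on feeder cells and picked as individual clones (the protocol also names a Tet1 plasmid, which the genotype labels of these samples do not). All cells were grown in serum with LIF, and how many clones the 3 Tet2kd replicates came from is not given in the sources used here. The sample titles of the parental cells also carry the word knock-down, whereas their genotype field says wild-type, and the genotype field was followed. The DNA of each replicate was divided between BS-seq and oxBS-seq, which gave the 12 samples in 4 groups of 3. Tet2 transcript was not measured in these files, so neither the knockdown nor the cell type was checked here. The study's methods describe measuring the knockdown by quantitative PCR and western blot.

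DNA methylation is written at CpG dinucleotides by DNA methyltransferases, which copy the mark onto both strands. TET enzymes, Tet2 among them, oxidize 5-methylcytosine (5mC) to 5-hydroxymethylcytosine (5hmC) and on to forms that are replaced by unmodified C. Bodies of transcribed genes, exons included, are commonly methylated in mouse cells, and TET2 is known to act within gene bodies in embryonic stem cells. In BS-seq both 5mC and 5hmC are read as C, whereas in oxBS-seq 5hmC is oxidized beforehand and read as T, so that the C share reports mainly 5mC and the BS-seq minus oxBS-seq difference reports 5hmC.

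Hsp90ab1 (ENSMUSG00000023944) lies on the minus strand at chr17:45704724-45710220, with 11 exons in its main transcript. The covered stretch of 435 bp holds the whole of coding exon 7 (chr17:45706419-45706775, 357 bp), 33 bp of intron 7 on the low-coordinate side and 45 bp of intron 6 on the other. Of the 27 cytosines, 26 were exonic, being both strands of 13 CpGs, and 1 was intronic. The intronic one, CpG 1+ at position 45706411, lies 8 bases beyond the 3′ end of exon 7, and only its plus-strand cytosine was covered. CpGs are numbered 1 to 14 by rising coordinate, which runs against transcription, and + or - gives the strand of the cytosine, so that minus-strand cytosines are those of the coding strand.

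The sequences around the CpGs to which the results return are given on the plus strand, 5′ to 3′, with each CpG in capitals, because they show how closely CpGs of different level can lie.

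CpG 1, intron 7, chr17:45706401-45706421: aacacttgtcCGtcttacctt

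CpG 2, exon 7, chr17:45706475-45706488: ccagctCGgagaag

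CpG 3 and CpG 4, exon 7, chr17:45706502-45706526: tcttgaCGatgttcttgCGgatgac

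CpG 5, exon 7, chr17:45706552-45706565: atctccCGggagat

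CpG 7 and CpG 8, exon 7, chr17:45706592-45706607: ccacacCGCGgataaa

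CpG 10 and CpG 11, exon 7, chr17:45706651-45706667: aacacaCGgCGgacata

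CpG 13 and CpG 14, exon 7, chr17:45706714-45706730: ggagccCGcCGgggaat

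The median coverage of the 27 cytosines lay between 305 and 3727 read-outs per sample, of 4505229 to 18096597 genomic read-outs in the whole of a sample. The lowest coverage was 25 read-outs, at CpG 5+ in v6.5 oxBS-seq replicate 2, where a C share of 48.0% has a Wilson 95% interval from 30% to 66.5% and 3 read-outs make up 12%. At the median coverage, 1370 read-outs, a C share of 83.4% has an interval from 81.4% to 85.3%. These intervals cover counting error only, since reads were amplified without molecular identifiers. A search of the mm9 genome found 28 other matches to 200 bases or more of the stretch, at 86.3% identity at most. None of these matches reached 20 bases into either intron. Whether they are pseudogenes or related genes was not looked up. The search used unconverted sequence, so mapping of bisulfite-converted reads to the wrong place was not tested. The 153 non-CpG cytosines of the stretch, which measure incomplete conversion together with any non-CpG methylation, had C shares from 0.33% to 0.665% of their read-outs per sample.

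In the parental cells the stretch was methylated at an intermediate level that differed widely between neighbouring CpGs. The 27 cytosines of v6.5 BS-seq had a mean C share of 55.8%, 55.7% and 61.0% by replicate, and that of single cytosines ran from 39.0% to 82.1% (group means, median 56.7%). The 3 highest were CpG 4-, CpG 11+ and the intronic CpG 1+, and the 3 lowest were CpG 3+, CpG 7- and CpG 3-.

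CpG 4- (position 45706520) had C shares of 82.6%, 79.7% and 84.1% in v6.5 BS-seq. CpG 3-, its neighbour 11 bases away, had 40.02%, 33.6% and 50.4%, and CpG 3+ had 37.6%, 38.6% and 40.8%. The replicates of CpG 3 and CpG 4 were far apart, on both strands, and CpG 4+ (76.2%, 78.6% and 77.6%) stood with CpG 4-. CpG 11+ (position 45706660) had 80.0%, 80.4% and 80.4%, and CpG 10+, 3 bases before it, had 50.3%, 50.4% and 52.6%. The step between these 2 adjacent CpGs was present on the minus strand as well, where CpG 11- had 71.4%, 71.8% and 75.6% and CpG 10- had 42.0%, 32.6% and 52.5%. CpG 7-, in the run of 2 CpGs without a base between them, was low in each replicate with 40.2%, 39.0% and 43.2%.

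**Figure D1:**
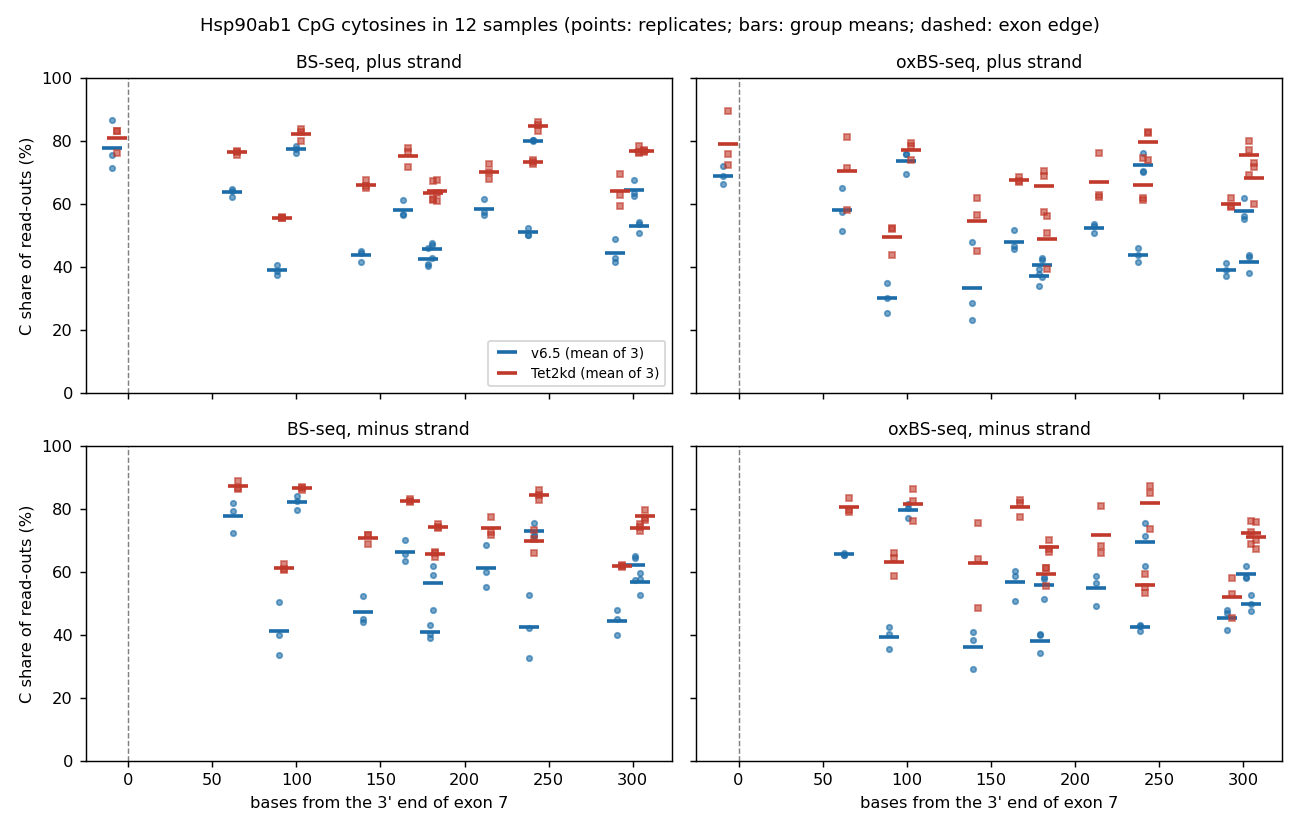
C share of read-outs in percent (vertical axis) against the distance in bases from the 3′ end of exon 7 (horizontal axis, intron left of the dashed line), with plus-strand cytosines above, minus-strand cytosines below, BS-seq left and oxBS-seq right; circles are the 3 v6.5 and squares the 3 Tet2kd replicates, offset sideways so that they can be told apart, and bars are group means. In BS-seq, 26 of 27 cytosines have all Tet2kd squares above all v6.5 circles, and levels run from 39.0% to 82.1% in v6.5.

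Tet2kd was compared with the parental line to ask where methylation differs between them. The Tet2kd cells also differ by plasmid, puromycin selection and clone picking, and no control hairpin is among the samples. These and the reduction of Tet2 cannot be told apart here. BS-seq C shares were higher in Tet2kd along the whole exon. The mean of the 27 cytosines was 72.8%, 73.7% and 73.8% in the Tet2kd replicates, against 55.8%, 55.7% and 61.0% in v6.5, so that the groups did not overlap and differed by 15.9 percentage points (73.4% ± 0.527 against 57.5% ± 3.06, SD, n = 3 each). v6.5 replicate 3 stood above the other v6.5 replicates. The 27 differences all had the same sign and ran from 3.11 to 27.6 percentage points, with a median of 17.2. The median over all 384 CpG cytosines was 5.94. Those 384 include 64 cytosines of a locus with a C share of 0.227% in v6.5 BS-seq. They also include loci at 86.1% to 94.2%, which differed by -0.939 to 1.66 percentage points.

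By logistic regression of the C and T read-outs on genotype, with a quasi-binomial dispersion moderated across cytosines with limma and Benjamini-Hochberg adjustment over all 384 CpG cytosines (threshold 0.05), 26 of the 27 rose in Tet2kd. In the whole series 59.1% of CpG cytosines were called higher and 0.521% lower. Every Tet2kd sample lay above every v6.5 sample at the same number of cytosines, 26, against 56.2% in the series. The cytosine that was not called was the intronic CpG 1+ (log odds 0.27, limma-moderated adjusted p = 0.355), and this rested on v6.5 replicate 3, without which it passed (log odds 0.45, adjusted p = 0.0454), while without v6.5 replicate 1 its log odds were 0.05. The non-CpG C share of the stretch was also higher in Tet2kd BS-seq (0.566% to 0.636% against 0.426% to 0.456%), by 0.155 percentage points, and its part in the result was not tested beyond subtracting it from each sample, which left 15.8 percentage points of the 15.9.

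The 4 cytosines with the largest BS-seq differences were CpG 10-, CpG 7-, CpG 14+ and CpG 5-, and they lay in different parts of the exon. CpG 10- (position 45706658) went from 42.0%, 32.6% and 52.5% in v6.5 to 73.4%, 70.6% and 66.0% in Tet2kd, a difference of 27.6 percentage points (limma-moderated adjusted p = 0.00462), the widest spread between v6.5 replicates being here (SD 9.95). CpG 7- (position 45706599) went from 40.2%, 39.0% and 43.2% to 65.9%, 66.4% and 64.8% (24.9 percentage points, limma-moderated adjusted p = 4.27e-06). The Tet2kd replicates of CpG 7- fell within a narrow range, above each v6.5 replicate. CpG 14+ (position 45706723) went from 50.8%, 53.6% and 54.5% to 77.0%, 76.6% and 77.3% (24.0 percentage points, limma-moderated adjusted p = 6.89e-06). CpG 5- (position 45706559) went from 45.0%, 44.2% and 52.3% to 69.0%, 71.8% and 71.8% (23.7 percentage points, limma-moderated adjusted p = 9.63e-06).

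The least methylated cytosines of the parental cells rose as well but remained the lowest in Tet2kd at CpG 3+. CpG 3+ (position 45706508) reached 55.7%, 55.9% and 55.6% (16.7 percentage points, limma-moderated adjusted p = 3.06e-05), and CpG 3- reached 62.4%, 61.0% and 60.8%. The differences at the highest cytosines were small. CpG 4- reached 86.9%, 86.7% and 86.2% (4.46 percentage points, limma-moderated adjusted p = 0.00962) and CpG 11+ reached 83.4%, 85.1% and 86.2% (4.65 percentage points, limma-moderated adjusted p = 0.00858). These 2 had Tet2kd replicates above all v6.5 replicates by a few percentage points, and CpG 4- no longer passed without v6.5 replicate 1 (limma-moderated adjusted p = 0.0934).

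The intronic CpG 1+ had 71.5%, 75.5% and 86.6% in v6.5 BS-seq and 76.2%, 83.4% and 83.4% in Tet2kd, and the groups overlapped through v6.5 replicate 3. In oxBS-seq it had 69.0%, 66.4% and 72.1% in v6.5, and in Tet2kd 89.7%, 72.4% and 75.9%, which did not overlap and yet did not pass the test (limma-moderated adjusted p = 0.214). The 26 exonic cytosines averaged 56.7% ± 2.88 in v6.5 and 73.2% ± 0.391 in Tet2kd BS-seq (SD, n = 3). The exonic mean minus the intronic C share was -21.2 percentage points in v6.5 and -7.86 in Tet2kd. But a single intronic cytosine, on 1 strand, stands for no intron, and the exonic CpG 4- and CpG 11+ had higher levels in v6.5 BS-seq.

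**Figure D2:**
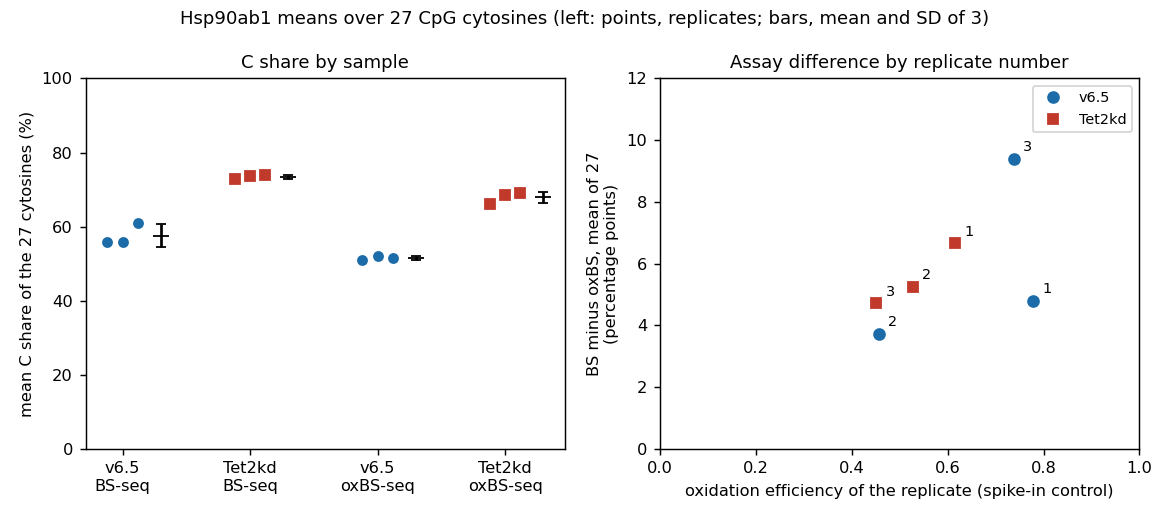
Left, mean C share of the 27 cytosines in percent (vertical axis, from 0) for the 3 replicates of each genotype and assay, with the mean and SD (n = 3) beside them. Right, the BS-seq minus oxBS-seq difference of the same mean in percentage points against the oxidation efficiency of the replicate, with points labelled by replicate number; the Tet2kd groups lie above the v6.5 groups in both assays, by 15.9 percentage points in BS-seq and 16.4 in oxBS-seq, while the assay differences of the genotypes overlap.

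Across the 27 cytosines the difference in percentage points was larger where the parental level was lower. The 10 cytosines below 50% in v6.5 BS-seq differed by 16.7 to 27.6 percentage points, the 6 from 50% to below 60% by 11.7 to 24.0, and the 11 at 60% and above by 3.11 to 16.2. To keep the level apart from the libraries that give the difference, the level was also taken from v6.5 oxBS-seq: Pearson's r with the BS-seq difference was -0.87 and Spearman's rho -0.84 over the 27 cytosines, which share libraries, reads and, in pairs, a CpG, and are not independent. The share has a ceiling of 100%. On the log-odds scale, which has none, the corresponding r was -0.73 and rho -0.65, with odds ratios of Tet2kd against v6.5 from 1.31 to 2.98 (median 2.09). The classes of v6.5 BS-seq level given above share libraries with the difference. Their mean log odds ratio was 0.86 below 50%, 0.87 from 50% to below 60% and 0.56 at 60% and above. On this scale the lowest class was not above the middle class. The order of the cytosines was largely kept, with an r of 0.92 between the v6.5 and the Tet2kd BS-seq levels.

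**Figure D3:**
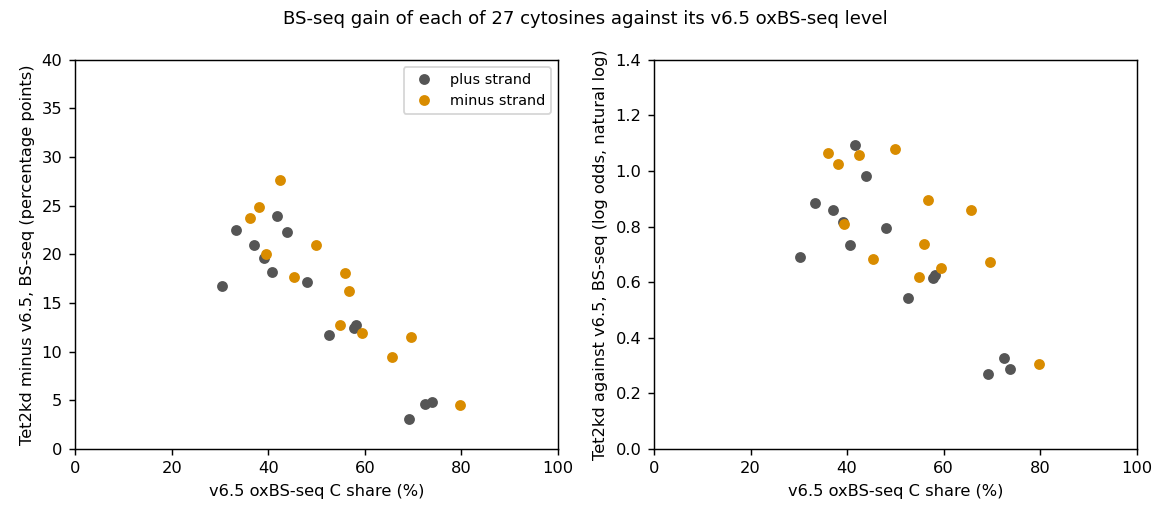
Difference of the BS-seq C share, Tet2kd minus v6.5, in percentage points (left) and as the natural-log odds ratio (right), against the v6.5 oxBS-seq C share in percent, for each of the 27 cytosines (one colour per strand). Differences run from 3.11 to 27.6 percentage points and are lower at higher parental levels, with r = -0.87 on the left and -0.73 on the right.

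Both strands of the 13 exonic CpGs could be compared. Bisulfite-treated strands are no longer complementary and are amplified separately, so strand and amplicon cannot be told apart here, and the median coverage of the 2 strands differed by sample, as in Tet2kd oxBS-seq replicate 1 with 294.5 read-outs on the plus and 4072 on the minus strand. The levels of the strands went together in v6.5 BS-seq (r = 0.89 over 13 CpGs) and in Tet2kd BS-seq (r = 0.85), and so did the differences between genotypes (r = 0.88). In BS-seq the plus-strand mean was 55.6% in v6.5 and 71.6% in Tet2kd and the minus-strand mean 57.8% and 74.7%, values without a test.

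Some CpGs had a higher C share on one strand, counted below over the 12 samples, in which each replicate's DNA was read by 2 assays. CpG 2 was 63.8% on the plus and 77.9% on the minus strand in v6.5 BS-seq, 14.1 percentage points apart (SD 3.71, n = 3), and the minus strand was the higher in all 12 samples. CpG 8 had 45.9% and 56.4%, 10.5 percentage points apart (SD 4.58, n = 3), and CpG 6 had 58.3% and 66.5%, and both, like CpG 4, also had the minus strand higher in all 12 samples. CpG 10 went the other way, with the minus strand higher in 1 of 12 samples, and the remaining CpGs had it higher in 3 to 11. CpG 7 and CpG 8, which abut, differed in this respect, since CpG 7 had the minus strand higher in 5 of 12.

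**Figure D4:**
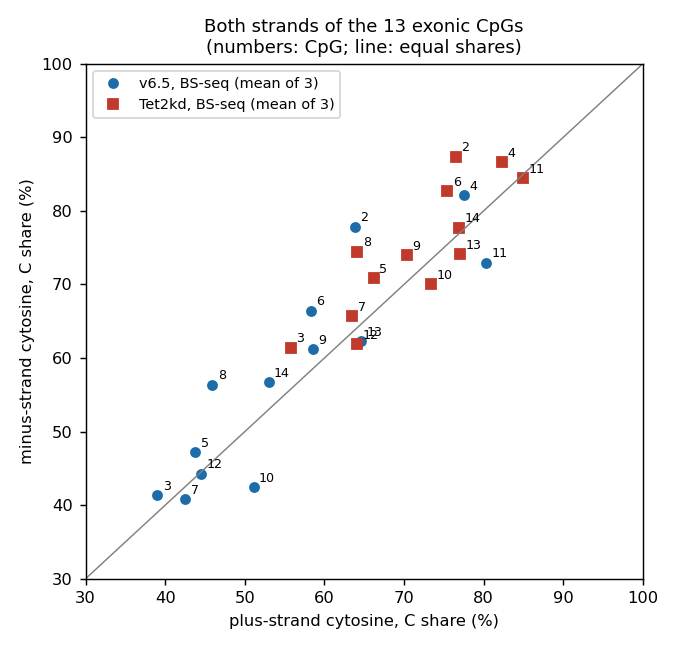
C share of the minus-strand cytosine against that of the plus-strand cytosine of each of the 13 exonic CpGs in BS-seq, in percent, as means of 3 replicates (circles v6.5, squares Tet2kd, numbers the CpG, line equal shares). Points of both genotypes lie near the line (r = 0.89 and 0.85), with CpG 2 above it by 14.1 percentage points in v6.5 and 10.8 in Tet2kd.

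In oxBS-seq, which reads mainly 5mC, the difference between the genotypes was about as large as in BS-seq. It is not corrected for 5hmC left unoxidized, and the oxidation efficiencies, given below, differed between replicates. The Lux model described below, which allows for them, gave a 5mC difference of 0.143 as a proportion. The v6.5 replicates averaged 51.0%, 52.0% and 51.6% over the 27 cytosines and the Tet2kd replicates 66.2%, 68.4% and 69.1%, a difference of 16.4 percentage points with no overlap (67.9% ± 1.53 against 51.5% ± 0.538, SD, n = 3 each). All 27 differences were positive, from 2.10 to 28.7 percentage points. By the same test 18 of the 27 rose, against 43% of the 384 CpG cytosines, and no cytosine of the series fell (0 called, with 0.26% lower at an unadjusted p under 0.05). At 19 of the 27 every Tet2kd sample lay above every v6.5 sample, against 49.2%. The 18 called in oxBS-seq were all among the 26 called in BS-seq. The replicates of Tet2kd varied more in oxBS-seq (median SD 5.19 percentage points over the 27) than in BS-seq (median SD 1.39), and without v6.5 replicate 1 the calls numbered 11 instead of 18.

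Among the cytosines named above, CpG 14+ went from 38.1%, 44.0% and 43.1% to 60.1%, 73.1% and 71.8% in oxBS-seq (limma-moderated adjusted p = 0.0016) and CpG 7- from 34.2%, 39.8% and 40.4% to 55.6%, 61.2% and 61.4% (limma-moderated adjusted p = 0.00215). CpG 3+ went from 25.5%, 35.1% and 30.4% to 52.5%, 43.8% and 52.2%, and CpG 3- from 42.4%, 35.5% and 40.4% to 58.8%, 66.2% and 64.4%. The groups were separate at all 4. CpG 10- went from 41.3%, 42.7% and 43.1% to 53.3%, 55.2% and 59.2%, which passed narrowly (limma-moderated adjusted p = 0.0476) and did not pass with the replicate block (0.0861) or when any replicate other than Tet2kd replicate 1 was left out (0.0699 to 0.137). CpG 5- went from 38.3%, 29.0% and 41.0% to 48.4%, 75.7% and 64.2% and did not pass (limma-moderated adjusted p = 0.062), with Tet2kd replicate 1 low and without it an adjusted p of 0.00814 by the same limma-moderated test. At the highly methylated CpG 4- the values were 80.4%, 77.1% and 81.5% in v6.5, and in Tet2kd 76.2%, 86.5% and 82.6%, and at CpG 11+ they were 70.2%, 76.2% and 70.7% against 82.6%, 74.2% and 83.0%. These 2 overlapped between genotypes in oxBS-seq, and CpG 11+ passed without Tet2kd replicate 2 (limma-moderated adjusted p = 0.0096).

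BS-seq exceeded oxBS-seq on average in every replicate, over the 27 cytosines by 4.80, 3.73 and 9.40 percentage points for v6.5 and by 6.67, 5.26 and 4.71 for Tet2kd. The size differed little between genotypes on average (5.98 ± 3.01 against 5.55 ± 1.01, SD, n = 3), and the groups overlapped. Oxidation was incomplete and uneven: from the hydroxymethylated stretch of the spiked-in lambda DNA the v6.5 replicates had efficiencies of 0.779, 0.457 and 0.739 and the Tet2kd replicates of 0.616, 0.527 and 0.452, so that a given 5hmC level gives a smaller difference in the replicates with low efficiency.

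At single cytosines no assay difference passed the adjusted test. With the replicate as a block, 0 of 27 passed in v6.5 and 0 in Tet2kd by the limma-moderated test, against 0% of the series for both, and the smallest adjusted p was 0.0555 in v6.5 and 0.0753 in Tet2kd. At an unadjusted p under 0.05, BS-seq was higher at 13 of the 27 in v6.5 (35.9% of the series) and at 6 in Tet2kd (18.5%). Without the block BS-seq was called higher at 7 in v6.5 (22.4% of the series, with 0% lower) and at 0 in Tet2kd (0.26%, with 0.26% lower). With counts summed over replicates, Fisher's exact test called BS-seq higher at 20 in v6.5 (59.4% of the series) and lower at 0 (4.95%), and higher at 22 in Tet2kd (58.6%) and lower at 2 (12.8%). BS-seq exceeded oxBS-seq in all 3 replicates at 17 of 27 in v6.5 (48.7% of the series) and at 15 in Tet2kd (29.9%).

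The 4 largest v6.5 assay differences were at CpG 2-, CpG 14+ and the cytosines of CpG 5. CpG 2- (position 45706482) had 72.3%, 79.4% and 81.9% in BS-seq and 65.5%, 65.4% and 65.9% in oxBS-seq, a difference of 12.2 percentage points (SD 4.84, n = 3), and in Tet2kd it had 86.6%, 86.5% and 89.0% against 79.1%, 79.6% and 83.7%. CpG 14+, whose values are given above, had 12.7, 9.65 and 11.4 percentage points in v6.5, and in Tet2kd 16.9, 3.44 and 5.53. CpG 5- had 6.72, 15.2 and 11.2 in v6.5, and in Tet2kd 20.6, -3.82 and 7.62. At these 3 cytosines each v6.5 replicate was positive. CpG 5+ (position 45706558) had 41.6%, 45.2% and 44.5% in v6.5 BS-seq and 28.6%, 48.0% and 23.3% in oxBS-seq, where replicate 2 is the value resting on 25 read-outs, and 67.7%, 65.9% and 65.04% against 45.2%, 56.6% and 61.9% in Tet2kd. CpG 5+ and CpG 5- are the C of the 2 strands of one CpG in the palindrome CCGG.

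**Figure D5:**
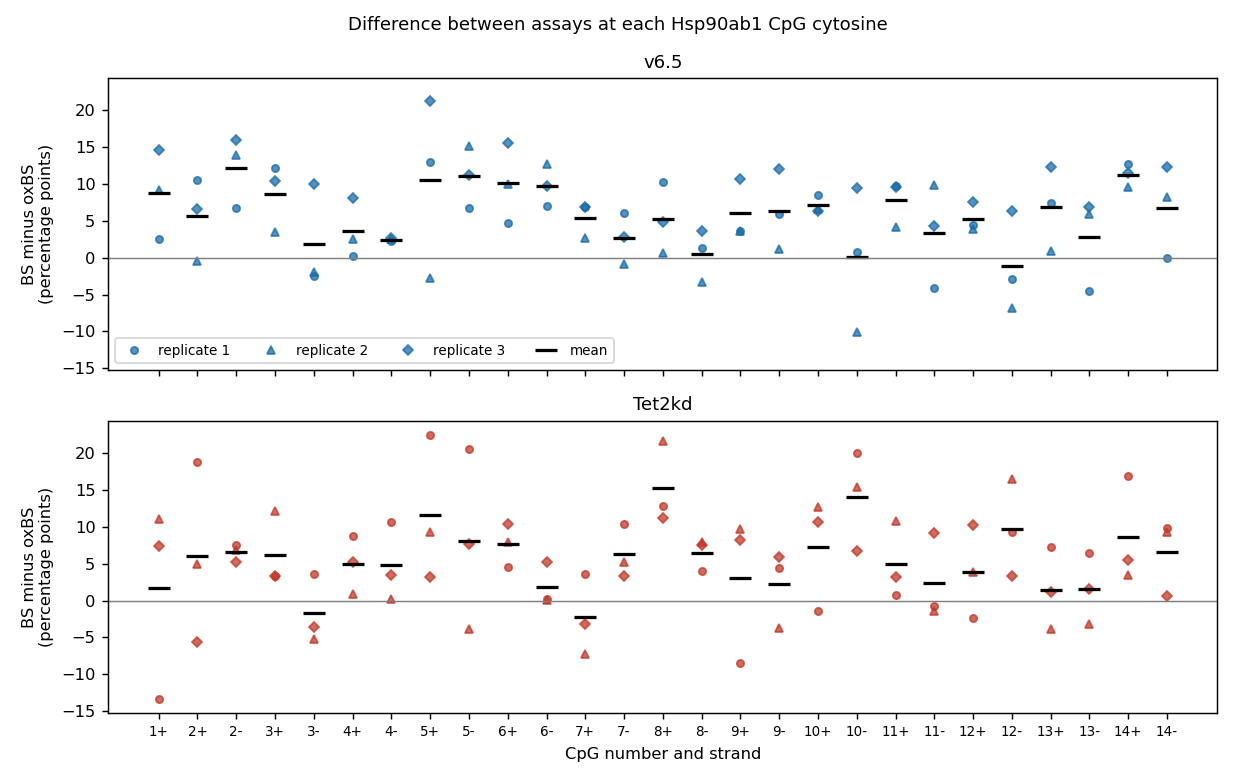
BS-seq minus oxBS-seq C share in percentage points at each of the 27 cytosines (horizontal axis, CpG number and strand) for v6.5 above and Tet2kd below, with one symbol per replicate and bars for the mean of 3. Mean differences are positive at most cytosines in both genotypes, and the replicates of one cytosine often spread across 0.

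No cytosine of the stretch passed the test for a changed assay difference. The limma test on the replicate differences called 0 of 27 and 0% of the series in each direction, with the smallest adjusted p of the 27 at 0.434. At an unadjusted p under 0.05 it found 2 of 27 higher in Tet2kd (1.56% of the series) and 1 lower (6.77%). All Tet2kd replicates lay above all v6.5 replicates at 2 of 27 (3.39% of the series) and below them at 1 (9.11%). CpG 10- had the largest change, from 0.772, -10.1 and 9.42 percentage points in v6.5 to 20.1, 15.4 and 6.75 in Tet2kd (limma adjusted p = 0.553), and its replicates overlapped. The median SD of these differences over the 27 cytosines was 4.84 percentage points in v6.5 and 5.50 in Tet2kd (n = 3 each).

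The Lux model, which estimates C, 5mC and 5hmC together and takes the oxidation efficiency of each replicate into account, placed the change mainly in C and 5mC. Its C state also holds 5fC and 5caC, the forms oxidized beyond 5hmC, which the study states these assays cannot separate from C. Averaged over the 27 cytosines, C went from 0.415 ± 0.0265 in v6.5 to 0.254 ± 0.00636 in Tet2kd, 5mC from 0.478 ± 0.0236 to 0.621 ± 0.0116, and 5hmC from 0.107 ± 0.0269 to 0.125 ± 0.00595 (posterior mean proportions, SD over 3 replicates). The model fits the replicates of one genotype together around a shared mean, so these SDs are not those of independent estimates. The replicates were separate for C and 5mC. For 5hmC they were 0.0759, 0.119 and 0.126 in v6.5, and in Tet2kd 0.130, 0.126 and 0.118, which overlap, and the sign of the 5hmC difference changed from 0.0181 to -0.0039 without v6.5 replicate 1, to -0.0027 with ideal experimental parameters and to -0.0043 without a model. The 5hmC levels also rested on the model. They were 0.0689 in v6.5 and 0.0662 in Tet2kd with ideal experimental parameters, and 0.0598 and 0.0555 without a model. The C and 5mC differences kept their sign in every alternative run.

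A Bayes factor (BF) compares different against equal proportions of the 3 states in the genotypes, and a BF above 1 was taken as a call. It was above 1 at 5 of the 27 cytosines, against 7.55% of the series, and at 0 of them above 3, against 1.3% of the series. CpG 14+ had a BF of 1.84, with 5mC going from 0.366 to 0.691. CpG 5- had 1.59 and CpG 5+ had 1.46, and CpG 10- had 1.58 with 5mC going from 0.380 to 0.488 and 5hmC from 0.0493 to 0.220. CpG 8+ (position 45706600), with a BF of 1.21, had BS-seq C shares of 47.2%, 42.8% and 47.8% in v6.5 against 63.7%, 61.2% and 67.6% in Tet2kd, but 36.9%, 42.2% and 43.0% against 50.9%, 39.5% and 56.4% in oxBS-seq, where it did not pass (limma-moderated adjusted p = 0.17) but did without Tet2kd replicate 2 (0.0119). The model accordingly gave CpG 8+ the highest 5hmC of the stretch in Tet2kd, 0.279, with an assay difference of 12.8, 21.7 and 11.2 percentage points in the 3 replicates. With another random seed the same 5 cytosines had a BF above 1, in another order. CpG 14+ then had 2.03, CpG 8+ 1.56, CpG 5+ 1.51, CpG 5- 1.3 and CpG 10- 1.23. With ideal experimental parameters only CpG 14+ kept a BF above 1, at 1.11, and without v6.5 replicate 2 a BF above 1 was found at 2 cytosines and without Tet2kd replicate 2 at 3.

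Set among the 14 covered loci, the Hsp90ab1 stretch was of middling level and ranked high in the difference between genotypes, in a set mostly picked for such differences. Its v6.5 BS-seq mean, 57.5%, ranked 9 of 14, and its difference ranked 4 of 14 in BS-seq and 4 of 14 in oxBS-seq, behind 3 loci with 17.7 to 22.4 percentage points in BS-seq. The CpG cytosines of the other 13 loci, 357 in all, differed by 8.13 percentage points in BS-seq and 9.42 in oxBS-seq. These ranks are a description, and no test of the stretch against the other loci was made.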

How the data were processed

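Mouse embryonic stem cells were measured by targeted BS-seq and oxBS-seq in 12 samples. Per the labels and the study's methods, the authors aligned reads to mm9 with Bismark 0.7.12 and Bowtie2 and deposited, for each cytosine, unnormalized counts of reads with C and with T. The deposited percent of C equals the share of those counts and was not used otherwise. Positions were raised by 1, and strand, context, exon and intron came from the mm9 sequence and gencode vM1. Cytosines with 10 or more read-outs in all 12 samples were kept (2428 of 2708, in 14 of 17 loci).

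Each test was fitted over all 384 CpG cytosines: quasi-binomial logistic regression with dispersion moderated by limma 3.58.1 (squeezeVar, never below 1; R 4.3.3), and limma on replicate differences. Lux used Markov chain Monte Carlo with numba 0.67.0 (5000 warm-up sweeps, 1000 draws, Dirichlet prior 0.8), oxidation efficiencies from 27 spike-in 5hmC cytosines and a Savage-Dickey BF. The main tests at single CpGs and the Lux model were also run on simulated counts, with the oxidation efficiencies taken as given. The simulated spread between replicates had a single setting for all cytosines and both assays, so performance at other spreads was not tested.

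The study calls the replicates biological, and its methods describe them as independent cultures of each genotype. The members, lists and tests were chosen with earlier results of these data known. Values in all samples are given for the 4 cytosines with the largest BS-seq difference, the 4 with the largest v6.5 assay difference, the 3 highest, the 3 lowest and those with a BF above 1.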

Additional observations from a re-analysis of the deposited data

Results flagged for a closer look

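The non-CpG cytosines of the stretch, which the comparisons use only as background, held a signal at CpA. The 51 CpA cytosines had a mean C share of 1.10% in Tet2kd BS-seq (1.00%, 1.14% and 1.16% in the 3 replicates) and 0.748% in v6.5 BS-seq (0.702%, 0.741% and 0.801%), which did not overlap. The 59 CpT cytosines had 0.422% and 0.355% and the 43 CpC cytosines 0.236% and 0.194% in the same groups, and the 26 unmodified cytosines of the spiked-in lambda DNA had 0.190% and 0.201%. In oxBS-seq the CpA means were 0.803% ± 0.143 in Tet2kd and 0.534% ± 0.102 in v6.5 (SD, n = 3), with 0.643% in Tet2kd replicate 2 below 0.652% in v6.5 replicate 3. With adjustment over all 2428 cytosines, 1 of the 153 non-CpG cytosines passed the limma-moderated test in BS-seq and 0 in oxBS-seq (0.342% and 0.294% of the 2044 non-CpG cytosines of the series). At an unadjusted p under 0.05 there were 12 and 13, or 7.84% and 8.5%, against 5.92% and 6.16% in the series.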

How the results depend on the processing

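The BS-seq and oxBS-seq differences of the stretch kept their direction in each alternative run, BS-seq between 15.0 and 17.7 percentage points, oxBS-seq between 15.6 and 17.2. Of the 27 cytosines, leaving out a replicate gave 22 to 27 called higher by BS-seq against 11 to 19 by oxBS-seq, and the other tests of all 27 gave 23 to 27 against 12 to 26. No cytosine passed a coverage minimum of 1000, and 23 passed one of 100. Deviations of same-numbered samples of the 2 genotypes correlated at 0.077 to 0.179 in BS-seq, against -0.118 to 0.006 for samples of different number. In oxBS-seq these ranges were -0.175 to 0.093 and -0.172 to 0.281. The correlations were weak in both assays and do not settle whether the replicate numbers pair the genotypes. With the replicate block 24 were called in BS-seq, 13 in oxBS-seq and 0 for the assay difference. Between the assays the block follows the division of each replicate's DNA. Their same-numbered deviations correlated at 0.01 to 0.05 in v6.5, against -0.073 to 0.031 for different numbers. In Tet2kd these ranges were -0.147 to -0.018 and -0.044 to 0.119. For BS-seq above oxBS-seq in v6.5, where 0 were called, no block gave 7, a coverage minimum of 100 gave 6 and Fisher's exact test on summed counts, which leaves out the spread between replicates, gave 20, with 22 higher and 2 lower in Tet2kd. Leaving out a replicate gave 0 in both. The 5mC difference of 0.143 was 0.164 without a model. The 5hmC difference, 0.0181, was -0.0027 with ideal parameters and -0.0043 without a model, and ran from -0.0039 to 0.0263 without single replicates, where BFs above 1 numbered 2 to 5, against 1 with ideal parameters. The oxBS-seq change of CpG 4- (log odds 0.0329) turned to -0.0732 with the replicate block and ran from -0.0635 to 0.257 without single replicates. The causes were not tested. Coverage under 100 limits CpG 5+, CpG 6+, CpG 9- and CpG 10-.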

Other observations

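Flanking bases were counted on each cytosine's own strand. The 27 cytosines fell into 10 tetranucleotides of the form NCGN with 1 to 5 cytosines each. The 5 in GCGG had v6.5 BS-seq C shares from 40.8% to 80.3% and the 5 in CCGC from 42.5% to 82.1%, so levels within one tetranucleotide spread over most of the range of the stretch. The 4 cytosines in CCGG (both strands of CpG 5 and CpG 14) averaged 50.2% in v6.5 and differed by 22.8 percentage points between genotypes.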
